A study of Homo sapiens with 28 samples.

Results

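CLEC2B, GIPC3, FAM216B, MOG, RHAG and MAMDC2 are 6 genes whose levels were far lower after 24 h of a BET bromodomain inhibitor than in solvent controls of the same time. They were chosen for that 24 h difference, and every probe set whose platform gene symbol is one of these 6 was taken: 13 of the 53617 probe sets on the array, standing for 6 of the 22357 genes measured. The genes were chosen by their measured log2 intensities at 24 h. MOG has 8 of the 13 probe sets and each other gene has 1. All 6 genes are among the 9285 genes tested, which had a log2 intensity above 5 on at least 4 arrays. Because the 24 h values chose the genes, those values are given as a description without a test, and only the 4 h values were tested.

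All samples came from CHL-1, an established melanoma line of human origin kept in DMEM with fetal calf serum. They received the BET inhibitor BAY1238097 at 468 nM, which the submitters name as its IC90, or at 75 nM, named as its IC50, or DMSO as the solvent control. Exposure lasted 24 h or 4 h, with no other difference in genotype or treatment named in the labels. Each dose and time has 5 arrays and DMSO has 4 arrays at each time, 28 in all. They are Affymetrix Human Gene arrays, and the extracted material was total RNA. Whether the arrays of 1 group stand for separate cultures is not given, and each p-value therefore reflects the spread among these arrays alone, part or all of which can be technical.

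BET proteins bind acetylated histones through their bromodomains and help RNA polymerase to move from initiation into elongation, so their inhibitors lower the transcription of many genes and raise that of others. The 6 genes come from unrelated families. CLEC2B encodes a C-type lectin-like surface protein that natural killer cells recognise through the receptor KLRF1 (NKp80). GIPC3 encodes a PDZ-domain adaptor of the GIPC family, whose loss causes hereditary deafness. MOG, myelin oligodendrocyte glycoprotein, sits on the outer surface of central nervous system myelin and has an immunoglobulin domain related to those of the butyrophilins. RHAG is the Rh-associated glycoprotein of red cells, needed for the Rh antigens to reach the membrane. MAMDC2 encodes a secreted proteoglycan with MAM domains, and FAM216B encodes a protein with no role stated here.

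All 6 genes were low together at 24 h, and promoter windows are shown so that start regions can be compared by eye. Windows were available for 4 of the 6 genes, and none for CLEC2B and GIPC3. They come from RefSeq on GRCh38.p14 and run from 250 bases before to 50 bases after the annotated start, 5′ to 3′ on the gene's strand. Capitals mark matches, on either strand, to the TATA box TATAAA, the CCAAT box, the GC box GGGCGG, the E-box CACGTG, the related CATGTG, the SOX motif ACAAAG, the AP-1 motif TGACTCA or the ETS motif TTCCGG. The windows are chr6:29656842-29657141 on the plus strand for MOG, chr6:49636790-49637089 on the minus strand for RHAG, chr9:70043331-70043630 on the plus strand for MAMDC2 and chr13:42781334-42781633 on the plus strand for FAM216B.
MOG: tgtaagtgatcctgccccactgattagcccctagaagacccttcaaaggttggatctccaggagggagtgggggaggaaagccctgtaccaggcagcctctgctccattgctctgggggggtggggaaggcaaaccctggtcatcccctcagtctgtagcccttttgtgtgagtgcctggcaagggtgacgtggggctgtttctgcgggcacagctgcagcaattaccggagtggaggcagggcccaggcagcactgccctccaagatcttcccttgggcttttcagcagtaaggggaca
RHAG: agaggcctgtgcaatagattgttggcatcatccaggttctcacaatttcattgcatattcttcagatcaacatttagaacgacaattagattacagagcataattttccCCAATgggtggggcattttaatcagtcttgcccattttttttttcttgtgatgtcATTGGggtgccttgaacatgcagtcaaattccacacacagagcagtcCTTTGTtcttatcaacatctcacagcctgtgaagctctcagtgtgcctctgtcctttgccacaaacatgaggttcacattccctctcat
MAMDC2: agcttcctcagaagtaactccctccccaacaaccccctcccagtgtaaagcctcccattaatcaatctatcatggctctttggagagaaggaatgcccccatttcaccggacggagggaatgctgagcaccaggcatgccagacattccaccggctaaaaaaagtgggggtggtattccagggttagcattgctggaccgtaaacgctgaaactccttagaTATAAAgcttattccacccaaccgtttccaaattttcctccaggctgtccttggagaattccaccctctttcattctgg
FAM216B: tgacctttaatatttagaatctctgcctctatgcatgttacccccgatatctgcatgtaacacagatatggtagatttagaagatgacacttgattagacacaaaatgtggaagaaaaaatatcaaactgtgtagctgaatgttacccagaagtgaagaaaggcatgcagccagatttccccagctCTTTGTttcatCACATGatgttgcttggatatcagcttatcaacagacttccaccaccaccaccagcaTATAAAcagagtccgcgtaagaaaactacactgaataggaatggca

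No motif of this set occurs in all 4 windows. MOG's window held none of them, only a match to the looser CANNTG, which starts 39 bases before the gene's start and is left in lower case. RHAG's held CCAAT on its own strand at position −141 and in reverse at −86, and ACAAAG in reverse at −39, with positions counted from the start site. In MAMDC2's window TATAAA began at −29, and a second RefSeq window of that gene, at chr9:70043598-70043897, held GGGCGG at −123 and −118, which share a base. FAM216B's held TATAAA at 5, after the start, with CATGTG in reverse at −53, which is also a CANNTG match, and ACAAAG in reverse at −64. Of all 35116 windows of this length, 11.5% held TATAAA, 34.6% CCAAT, 16.1% ACAAAG, 11.1% CATGTG, 45.0% GGGCGG and 68.7% CANNTG, each counted on both strands. Their GC content was 59.3% for MOG, 49.7% for MAMDC2, 42% for RHAG and 40% for FAM216B, beside a median of 58.7% over all windows.

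At 468 nM and 24 h all 6 genes were lower than in DMSO on every array. On the linear scale of the deposited values the difference was 15.5-fold for CLEC2B, 11.2-fold for GIPC3, 11.1-fold for FAM216B, 9.59-fold for MOG, 8.10-fold for MAMDC2 and 6.84-fold for RHAG. Among all tested genes 17.1% likewise had every 468 nM array below every DMSO array at 24 h, and 25.1% were called lower by limma at an adjusted p below 0.05, so the separation itself is what the choice of the genes fixed. The order by size of difference puts CLEC2B at place 4, GIPC3 at 6, FAM216B at 7, MOG at 8, MAMDC2 at 14 and RHAG at 20 of the 9285 genes. These folds and places are not firm for CLEC2B, MAMDC2 and RHAG, whose means at 468 nM and 24 h, 2.0, 2.40 and 2.44, lay below the median of all probe sets, 2.46. With 16 added to each intensity before the log, which damps differences among dim values, the order of the members changed, with −3.27 for FAM216B, −2.64 for GIPC3, −2.37 for MOG, −1.97 for CLEC2B, −1.46 for MAMDC2 and −1.27 for RHAG. In such bulk RNA, fewer cells expressing a gene and less of its RNA per cell cannot be told apart.

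**Figure D1:**
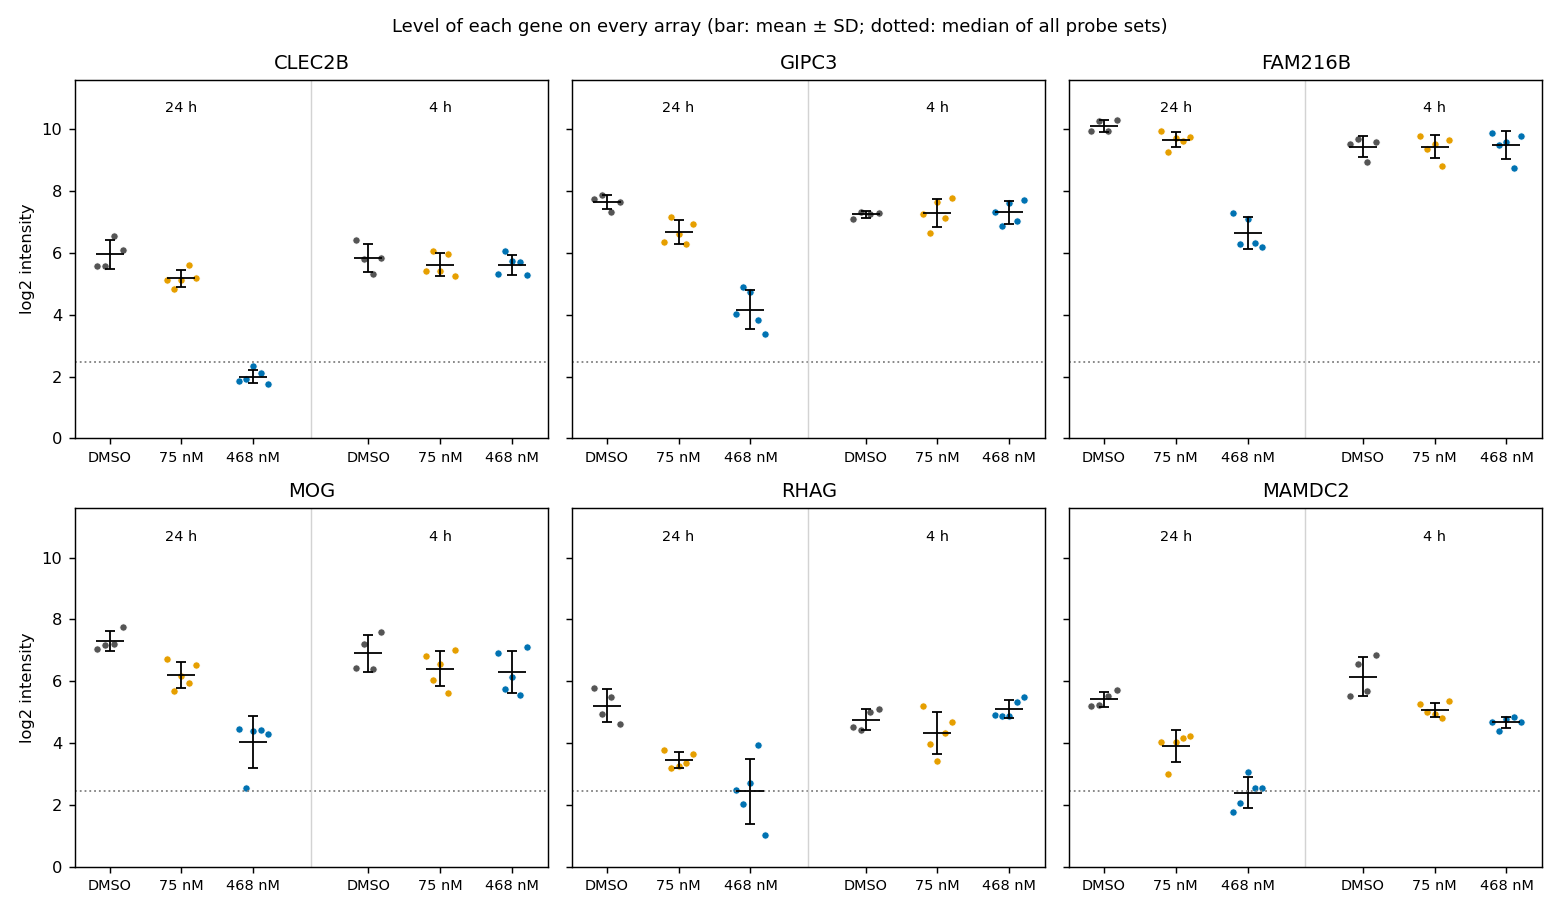
Log2 intensity (vertical axis) of CLEC2B, GIPC3, FAM216B, MOG, RHAG and MAMDC2 on each of the 28 arrays, by dose (horizontal axis) at 24 h on the left and 4 h on the right of each panel; points are arrays, bars are the mean ± SD, and the dotted line is the median of all probe sets, 2.46. The 468 nM arrays at 24 h sit below all DMSO arrays in every panel, while at 4 h only the MAMDC2 panel shows treated arrays that lie apart from DMSO.

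CLEC2B, the NKp80 ligand, had 5.59, 5.59, 6.55 and 6.10 log2 intensity in the DMSO arrays at 24 h, 5.12, 4.84, 5.13, 5.61 and 5.20 at 75 nM, and 1.87, 1.93, 2.34, 2.11 and 1.77 at 468 nM. All 5 arrays at 468 nM were below 2.46, the median of all probe sets. The 75 nM arrays overlapped DMSO at their upper end. The mean was 2.0 ± 0.23 at 468 nM and 24 h (SD, n = 5), against 5.96 ± 0.46 in DMSO (SD, n = 4), a difference of −3.95 ± 0.23 (SE), while 75 nM differed from DMSO by −0.77 and 468 nM from 75 nM by −3.18.

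At 4 h CLEC2B had 6.43, 5.80, 5.30 and 5.84 in DMSO, 5.41, 6.07, 5.41, 5.96 and 5.25 at 75 nM, and 5.32, 6.07, 5.73, 5.70 and 5.28 at 468 nM, so the 3 groups lay over each other. The difference from DMSO was −0.22 at 468 nM (95% interval −0.69 to 0.24, limma adjusted p = 0.651) and −0.22 at 75 nM (−0.69 to 0.24, limma adjusted p = 0.902). Between the doses at 4 h it was 0.00 (−0.44 to 0.44, limma adjusted p = 0.9995). The intervals leave room for a modest early difference but not for one of the 24 h size.

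GIPC3, the PDZ adaptor, had 7.73, 7.88, 7.31 and 7.65 in DMSO at 24 h, 6.34, 7.17, 6.61, 6.28 and 6.94 at 75 nM, and 4.01, 4.89, 4.72, 3.82 and 3.38 at 468 nM. The 3 groups did not overlap and were ordered by dose. The mean was 4.16 ± 0.63 at 468 nM (SD, n = 5), against 7.64 ± 0.24 in DMSO (SD, n = 4), which gives differences of −3.48 ± 0.26 (SE) at 468 nM and −0.98 at 75 nM, and −2.50 between the doses. At 4 h it had 7.09, 7.34, 7.26 and 7.30 in DMSO, 7.25, 6.64, 7.64, 7.13 and 7.79 at 75 nM, and 7.33, 6.86, 7.61, 7.03 and 7.73 at 468 nM. The treated arrays spread to both sides of the DMSO arrays. The tested differences were 0.06 at 468 nM (−0.47 to 0.60, limma adjusted p = 0.929) and 0.04 at 75 nM (−0.50 to 0.58, limma adjusted p = 0.985).

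FAM216B was the only one of the 6 above the filter level of 5 on all 28 arrays. This gene had 9.93, 10.27, 9.95 and 10.30 in DMSO at 24 h, 9.96, 9.28, 9.70, 9.62 and 9.76 at 75 nM, and 7.31, 6.28, 7.11, 6.32 and 6.20 at 468 nM. One 75 nM array reached into the DMSO range, and the 468 nM arrays lay far below both. The mean was 6.64 ± 0.52 at 468 nM (SD, n = 5), against 10.11 ± 0.20 in DMSO (SD, n = 4), a difference of −3.47 ± 0.24 (SE), beside −0.45 at 75 nM and −3.02 between the doses. At 4 h it had 9.52, 9.69, 8.95 and 9.59 in DMSO, 9.80, 9.37, 9.52, 8.82 and 9.65 at 75 nM, and 9.87, 9.49, 9.58, 8.74 and 9.77 at 468 nM. These groups overlapped throughout. The tested differences were 0.05 at 468 nM (−0.45 to 0.54, limma adjusted p = 0.943) and −0.01 at 75 nM (−0.50 to 0.48, limma adjusted p = 0.994).

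MOG, the myelin surface protein, is given by its brightest probe set, 17035008, which stands for the gene. It had 7.03, 7.17, 7.19 and 7.76 in DMSO at 24 h, 6.70, 5.69, 6.16, 5.95 and 6.52 at 75 nM, and 4.47, 2.53, 4.39, 4.43 and 4.30 at 468 nM. The doses did not overlap with each other or with DMSO, and 1 array at 468 nM lay well below the other 4. The mean was 4.03 ± 0.84 at 468 nM (SD, n = 5), against 7.29 ± 0.32 in DMSO (SD, n = 4), a difference of −3.26 ± 0.38 (SE), or −2.89 without that array, beside −1.08 at 75 nM and −2.18 between the doses.

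At 4 h MOG had 6.42, 7.21, 6.41 and 7.61 in DMSO, 6.83, 6.03, 6.54, 5.64 and 7.0 at 75 nM, and 6.91, 5.76, 6.14, 5.56 and 7.09 at 468 nM. The spread within each group was wide and the groups overlapped. The difference was −0.62 at 468 nM (−1.40 to 0.16, limma adjusted p = 0.362) and −0.50 at 75 nM (−1.28 to 0.27, limma adjusted p = 0.827). Neither passed in this fit, and the intervals reach past −1. The position codes in the array titles form runs, and in each of the 4 runs that hold DMSO the 468 nM array was the lower one: 5.76 against 6.42, 6.14 against 7.21, 5.56 against 6.41, and 7.09 against 7.61 in DMSO. The 468 nM call at 4 h therefore depends on whether the runs enter the fit.

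Of the 8 probe sets of MOG, 6 had identical values on every array, and probe set 17026093 is one of them. They averaged 6.0 over all arrays and followed the brightest probe set with a Pearson r of 0.989 over the 28 arrays. At 24 h they had 6.57, 6.67, 7.49 and 7.63 in DMSO, 6.80, 5.64, 6.19, 5.81 and 6.20 at 75 nM, and 4.39, 2.44, 4.32, 4.08 and 4.17 at 468 nM. Their difference from DMSO was −3.21 at 468 nM and −0.96 at 75 nM, close to that of the brightest probe set. In a fit of all 14688 probe sets above the filter, their 4 h differences were −0.51 at 468 nM (limma adjusted p = 0.580) and −0.35 at 75 nM (limma adjusted p = 0.932). The 6 share their values, so they are 1 measurement and not 6. Among all probe sets, 2113 are identical to another one.

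The remaining MOG probe set, 17006072, was dim in all groups, with 0 arrays above a log2 intensity of 5. Its group means lay between 1.05 and 1.75, and its r with the brightest probe set was 0.0994. It lacked the 24 h fall of the other 7 probe sets, with means of 1.33 in DMSO, 1.31 at 75 nM and 1.33 at 468 nM. At 4 h its means were 1.75, 1.24 and 1.05 in the same order, with SDs of 1.30, 1.01 and 1.10. At this dim level neither a pattern nor its absence can be read.

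**Figure D2:**
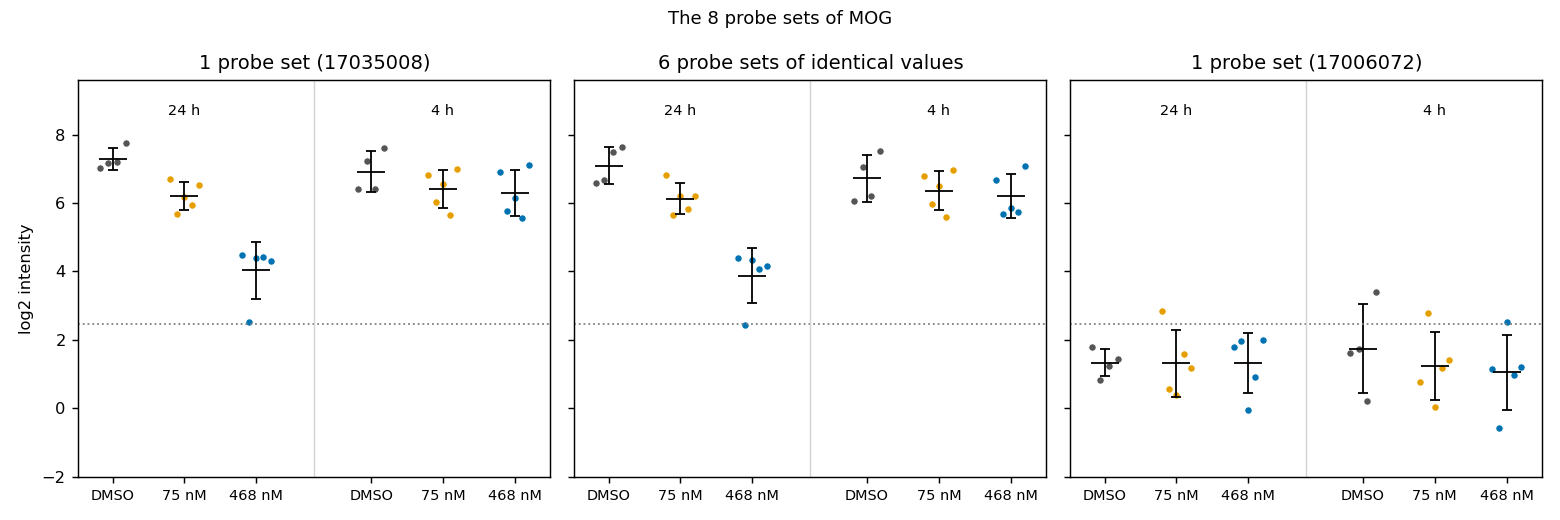
Log2 intensity (vertical axis) of the 8 MOG probe sets on each array, by dose (horizontal axis) at 24 h on the left and 4 h on the right of each panel; points are arrays, bars are the mean ± SD, and the dotted line is the median of all probe sets. Probe set 17035008 and the 6 of identical values have their lowest arrays at 468 nM and 24 h, while 17006072 stays near or below the dotted line in every group.

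RHAG, the red cell glycoprotein, had 5.80, 4.94, 5.48 and 4.63 in DMSO at 24 h, 3.79, 3.19, 3.26, 3.35 and 3.63 at 75 nM, and 2.48, 2.04, 2.72, 3.92 and 1.03 at 468 nM. Every treated array was below every DMSO array, but the doses overlapped each other and the 468 nM arrays were the most scattered group of the gene. The mean was 2.44 ± 1.05 at 468 nM (SD, n = 5), against 5.21 ± 0.53 in DMSO (SD, n = 4), a difference of −2.77 ± 0.38 (SE). At 75 nM the difference was −1.77, and the doses differed by −1.01.

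At 4 h RHAG had 4.51, 4.41, 4.99 and 5.11 in DMSO, 5.20, 3.96, 3.42, 4.32 and 4.69 at 75 nM, and 4.92, 4.89, 4.89, 5.34 and 5.49 at 468 nM. The 3 groups overlapped, with the lowest arrays at 75 nM. The difference was 0.35 at 468 nM (−0.43 to 1.13, limma adjusted p = 0.678) and −0.44 at 75 nM (−1.22 to 0.34, limma adjusted p = 0.869). Between the doses it was 0.79 (0.05 to 1.52), which did not pass after adjustment (limma adjusted p = 0.383). RHAG was above 5 on only 6 of the 28 arrays, which belonged to 4 of the 6 groups.

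MAMDC2, the MAM-domain proteoglycan, had 5.18, 5.25, 5.54 and 5.71 in DMSO at 24 h, 4.04, 3.0, 4.04, 4.18 and 4.24 at 75 nM, and 1.78, 2.06, 3.06, 2.54 and 2.56 at 468 nM. Both doses were below all DMSO arrays, with the lowest 75 nM array inside the 468 nM range. The mean was 2.40 ± 0.50 at 468 nM (SD, n = 5), against 5.42 ± 0.25 in DMSO (SD, n = 4), a difference of −3.02 ± 0.26 (SE), beside −1.52 at 75 nM and −1.50 between the doses. MAMDC2-AS1, the antisense gene beside it, was below the filter, with means of 0.87 at 468 nM and 1.87 in DMSO at 24 h.

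MAMDC2 passed the filter only through its DMSO arrays. In the fit of group means without the runs, it was the only one of the 6 called lower at 4 h. Its arrays then had 5.53, 6.55, 5.70 and 6.84 in DMSO, 5.25, 5.01, 4.93, 4.80 and 5.35 at 75 nM, and 4.68, 4.40, 4.77, 4.84 and 4.68 at 468 nM. Both doses again lay below all DMSO arrays. The mean was 4.67 ± 0.17 at 468 nM (SD, n = 5), against 6.15 ± 0.64 in DMSO (SD, n = 4), a fall of −1.48 ± 0.26 (SE, 95% interval −2.02 to −0.94, limma adjusted p = 2.72e-04). At 75 nM it averaged 5.07 ± 0.23 (SD, n = 5), a fall of −1.08 ± 0.26 (SE, −1.62 to −0.55, limma adjusted p = 0.0473). The difference between the doses at 4 h did not pass the test (−0.39, −0.90 to 0.11, limma adjusted p = 0.616).

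The 75 nM call for MAMDC2 is a marginal one, kept in some fits and lost in others. It was lost in 22 of the 28 fits that left out 1 array, with limma adjusted p between 0.0197 and 0.236 and a difference between −1.29 and −0.86. The 468 nM call was kept in all 28, with limma adjusted p between 6.49e-05 and 0.00264. MAMDC2 was above 5 on 11 arrays, which are the 8 DMSO arrays and 3 of the 75 nM arrays at 4 h. The filter needs 4 arrays, so the gene entered the test only through DMSO, where it is high. Both of its 4 h calls carry that limit.

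In the fit without the runs, 1 of the 6 genes was called lower at 468 nM and 4 h, where 6.95% of all tested genes were, and 1 at 75 nM and 4 h, where 0.345% were. At 4 h limma called none of them higher at 468 nM or 75 nM, beside 3.96% and 0.334% of all tested genes. For 468 nM against 75 nM at 4 h limma called 0 of the 6, where 1.43% of tested genes were called lower and 1.13% higher. Before adjustment 1 of the 6, RHAG, passed 0.05, and the share of all tested genes at that level is not given here. The median difference of the 6 genes at 4 h was −0.09 at 468 nM and −0.33 at 75 nM, beside −0.03 and −0.02 over all tested genes. A single gene, MAMDC2, had all 468 nM arrays below DMSO at 4 h (8.25% of tested genes did), and the same gene did so at 75 nM (2.35%).

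At 24 h the genes differed in how far 75 nM moved them. For CLEC2B, GIPC3, FAM216B and MOG every 468 nM array was below every 75 nM array, which held for 10.3% of tested genes, and the differences between doses were −2.18 to −3.18. For RHAG and MAMDC2 the doses overlapped and differed by −1.01 for RHAG and −1.50 for MAMDC2, and 75 nM differed from DMSO by −1.77 for RHAG and −1.52 for MAMDC2. Against DMSO, 4 of the 6 genes had all 75 nM arrays lower at 24 h (GIPC3, MOG, RHAG and MAMDC2), beside 4.18% of tested genes. The median difference of the 6 genes at 24 h was −3.36 at 468 nM and −1.03 at 75 nM, beside −0.02 and −0.02 over all tested genes.

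**Figure D3:**
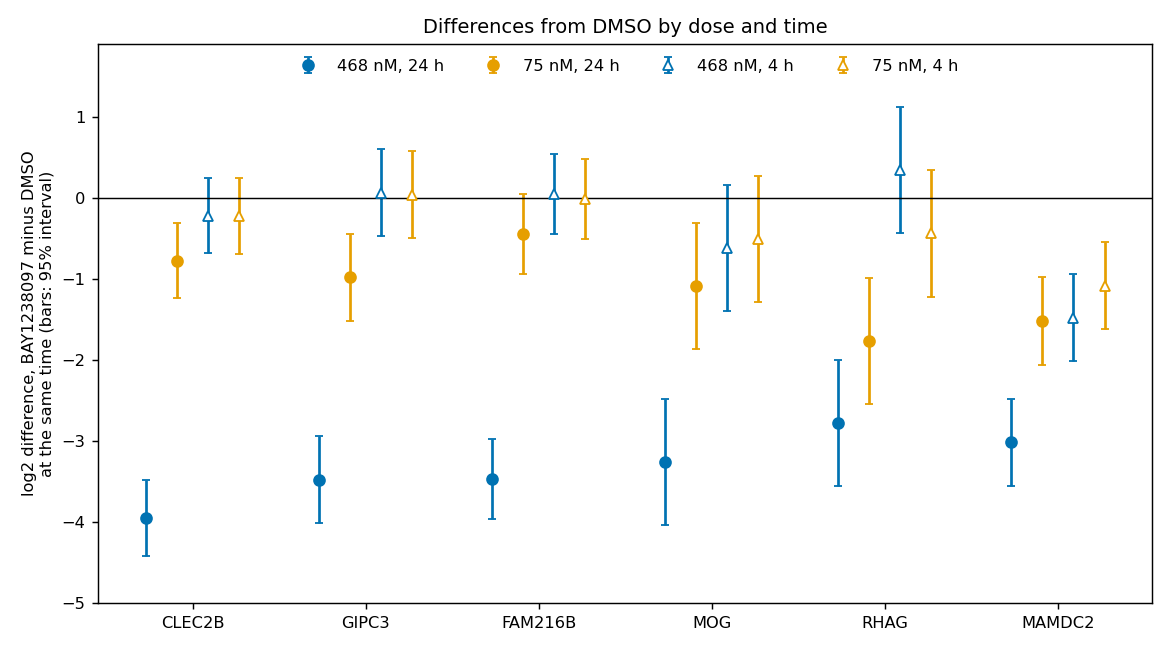
Log2 difference of BAY1238097 minus DMSO at the same time (vertical axis) for CLEC2B, GIPC3, FAM216B, MOG, RHAG and MAMDC2 (horizontal axis), for 468 nM and 75 nM at 24 h (filled circles) and at 4 h (open triangles); bars are 95% intervals from the fit of all genes. At 468 nM and 24 h the genes lie between −3.95 and −2.77, and at 4 h the intervals of every gene but MAMDC2 include 0.

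The effect of 468 nM at 24 h minus that at 4 h was −3.73 for CLEC2B, −3.54 for GIPC3, −3.52 for FAM216B, −3.12 for RHAG, −2.64 for MOG and −1.54 for MAMDC2. With 16 added to each intensity it was −3.31 for FAM216B, −2.71 for GIPC3, −1.85 for MOG, −1.80 for CLEC2B, −1.49 for RHAG and −0.37 for MAMDC2, so the order depends on the scale. For 75 nM the same quantity ran from −1.33 for RHAG to −0.44 for FAM216B and MAMDC2. In DMSO the 24 h minus 4 h difference was 0.11 for CLEC2B, 0.40 for GIPC3, 0.38 for MOG, 0.46 for RHAG, 0.67 for FAM216B and −0.73 for MAMDC2. The signs for RHAG and CLEC2B were not kept in every fit, with −0.08 to 0.31 for CLEC2B when 1 array was left out. For each of the 6 genes, every array at 468 nM and 24 h was also below every 4 h array of the same dose and of DMSO.

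In the order of levels over the 6 groups, 468 nM at 24 h was the lowest for every gene. It stood apart from the next group for CLEC2B, GIPC3, FAM216B and MOG and overlapped 75 nM at 24 h for RHAG and MAMDC2. Among the other groups, the levels of CLEC2B, GIPC3, FAM216B and MOG at 4 h overlapped each other at all doses. MAMDC2 had a further step, since its 468 nM arrays at 4 h did not overlap 75 nM at 24 h.

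**Figure D4:**
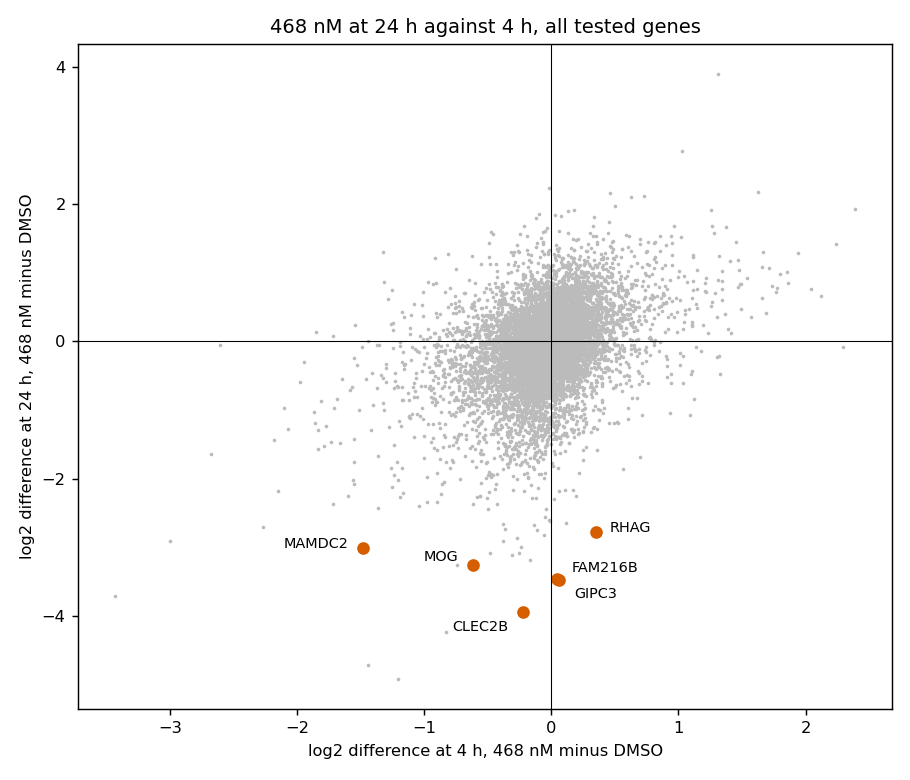
Log2 difference of 468 nM minus DMSO at 24 h (vertical axis) against that at 4 h (horizontal axis) for all 9285 tested genes, with CLEC2B, GIPC3, FAM216B, MOG, RHAG and MAMDC2 as large points. CLEC2B, GIPC3, FAM216B and RHAG lie between −0.22 and 0.35 on the 4 h axis, and MAMDC2 lies at −1.48.

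Another 14 genes had a 24 h difference at 468 nM as low as RHAG's or lower, among them the histone gene H2BC14, the interleukin 7 receptor gene IL7R, the cytokine gene IL6 and the myelin gene MAG. Of these 14, 4 were called lower at 468 nM and 4 h (IL7R, IL6, E2F8 and TMEM238L), beside 6.95% of all tested genes. The median 4 h difference of all 14 at 468 nM was −0.43. IL6 differed by −3.71 at 24 h and −3.43 at 4 h, the largest 4 h fall of the 14, beside −3.95 at 24 h and −0.22 at 4 h for CLEC2B. The rest of the 14 were not called at 468 nM and 4 h. Among these were H2BC14 (−4.92 at 24 h and −1.20 at 4 h), CLEC12B (−2.99 and −0.24) and BCAT1 (−2.82 and −0.06). A large fall at 24 h without a call at 4 h was thus not particular to the members.

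By Pearson r of the log2 intensity over the 28 arrays, the 3 genes most like CLEC2B were MELK (0.965), CEP55 (0.958) and PLK1 (0.952). For GIPC3 they were KYNU (0.953), SLC38A1 (0.949) and BCAT1 (0.943), and for FAM216B they were CLEC12B (0.952), SSR3 (0.946) and KYNU (0.946). Those of MOG were MARS1 (0.940), DPAGT1 (0.940) and RXRG (0.922). RHAG was most like LNP1 (0.897), NET1 (0.872) and AIRIM (0.869), and MAMDC2 most like SHISAL1 (0.920), CHST6 (0.917) and MCMBP (0.914). These values describe arrays that share their groups, and the 5 arrays of 468 nM at 24 h carry much of each r. Over the other 23 arrays the r of the first named gene was 0.800 for CLEC2B, 0.688 for GIPC3, 0.593 for FAM216B, 0.777 for MOG, 0.737 for RHAG and 0.809 for MAMDC2.

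The 15 pairs among the 6 genes had r between 0.698 and 0.911 over all arrays. Without the 468 nM arrays at 24 h they spread from 0.02, for CLEC2B with FAM216B, to 0.74, for FAM216B with MOG. Deviations of single arrays from their group means ran from −0.42, for CLEC2B with GIPC3, to 0.68, for FAM216B with MOG.

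Most relatives of the 6 genes were below the filter. Of 21 other lectin and natural killer receptor genes, 18 were measured and 1 passed the filter, the inhibitory lectin receptor CLEC12B, which averaged 5.68 at 468 nM and 8.68 in DMSO at 24 h (−2.99 ± 0.25, limma adjusted p = 9.4e-10). KLRF1, KLRF2 and CLEC2A, which neighbour CLEC2B in the genome, were measured and below the filter. For GIPC3, the GIPC partner and actin motor MYO6 rose at 24 h (1.08 ± 0.14, limma adjusted p = 4.93e-07), and of its neighbours HMG20B differed by 0.06 (limma adjusted p = 0.753) and TBXA2R by −0.83 (limma adjusted p = 0.0591). FAM216A, the other gene of the FAM216 pair, fell by 0.67 ± 0.18 on the log2 scale (limma adjusted p = 0.00399), far less than FAM216B's −3.47.

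Of 15 other myelin genes, 12 were measured and 6 passed the filter, of which 2 fell and 1 rose at 468 nM and 24 h. In that comparison 25.1% of all tested genes were called lower and 20.4% higher. MAG, the myelin-associated glycoprotein, fell nearly as far as MOG (−3.25 ± 0.48, limma adjusted p = 4.31e-06). Its means were 2.58 at 468 nM and 5.84 in DMSO. The 468 nM mean was only just above the overall median, 2.46, which leaves the extent of the MAG fall not firm. MAG is also 1 of the 14 other genes with a 24 h difference as low as RHAG's. The lists were chosen with earlier results known, so its adjusted p is not an independent test of myelin genes. UGT8, which makes the myelin galactolipids, fell by 0.36 (limma adjusted p = 0.00238), and CNP, a myelin enzyme, rose by 0.39 (limma adjusted p = 0.00122). Among 11 butyrophilin genes, all measured, 4 passed the filter, of which ERMAP rose (0.82, limma adjusted p = 0.00536) and BTN2A1 fell (−0.54, limma adjusted p = 0.0454). MOG's neighbour GABBR1, a GABA receptor subunit gene, rose (0.70 ± 0.19, limma adjusted p = 0.00363).

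Of 11 genes of the Rh family and the red cell Rh complex, 9 were measured and 2 passed: CD47, the surface protein that travels with this complex, rose (0.54, limma adjusted p = 0.0122), and RHCG differed by −0.24 (limma adjusted p = 0.636). Of 18 other MAM-domain genes, 17 were measured and 6 passed the filter, of which the phosphatase gene PTPRK rose (0.59, limma adjusted p = 0.00689) and the semaphorin receptor gene NRP2 fell (−0.98, limma adjusted p = 0.00572). As for the lists above, these calls stand beside 25.1% of all tested genes called lower and 20.4% higher at 468 nM and 24 h. At 75 nM and 24 h, where 0.474% of tested genes were called lower and 0.398% higher, limma called 0 of the 21 tested genes in these family lists. Before adjustment 6 of the 21 passed 0.05. The share of all tested genes at that level is not given, so the count shows neither an excess nor a lack of changed relatives. At 468 nM and 4 h the calls in them were BTN2A2 (−0.75, limma adjusted p = 0.0336) and NRP1 (−0.57, limma adjusted p = 0.0408), both lower, 2 of the 21 tested genes, beside 6.95% of all tested genes.

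Markers of cell types that these genes are known from were mostly below the filter. Of 11 erythroid markers 8 were measured and 0 passed the filter, with a highest single array of 4.70 for HBG1 and summed intensities of 38.1 to 43.3 at 468 nM and 31.2 to 57.1 in DMSO at 24 h. Of 9 oligodendrocyte markers 8 were measured and 2 passed, MAG and MYRF, which are 2 of the 7 genes that list shares with the myelin genes. The summed intensity of the list was 172 to 222 at 468 nM and 280 to 359 in DMSO at 24 h, and 203 to 255 at 468 nM and 250 to 326 in DMSO at 4 h. Its part in the MOG difference was not tested. Natural killer and other leukocyte markers had 1 of 9 measured genes above the filter, CD68, with sums of 55 to 68.2 at 468 nM and 64.4 to 73.9 in DMSO at 24 h. At 4 h the sums of that list were 66.9 to 101 at 468 nM and 59.4 to 69.4 in DMSO, which overlap. CD68, the only tested gene of the list, rose at 468 nM and 4 h (0.81, limma adjusted p = 0.00144), where 3.96% of all tested genes were called higher. The part of this list in the members' values was not tested. Of the melanocyte lineage markers, SOX10, S100B, PAX3 and EDNRB passed, while the pigment genes TYR, TYRP1, MLANA and PMEL and their regulator MITF did not, so the defining pigment markers of its lineage were below the filter on these arrays. Of the keratinocyte, fibroblast and endothelial markers 0 passed. The compound's known readouts moved at 4 h already: HEXIM1 rose by 1.67 (limma adjusted p = 5.2e-10) and MYC fell by 1.07 on the log2 scale (limma adjusted p = 2.59e-06) at 468 nM.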

How the data were processed

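The authors deposited linear intensity values for 53617 probe sets on 28 arrays. Per the submitters' processing notes they were summarised with RMA, whose version, like the genome build behind the probe sets, is not given in the sources used here. RMA equalises the arrays, so each value is relative to its own array, and array medians lay between 2.44 and 2.49. The intensity values were put on the log2 scale. A gene was given by its brightest probe set among those with 1 symbol. Genes above 5 on at least 4 arrays were tested with limma 3.58.1 in R 4.3.3: 6 group means over all 28 arrays, with Benjamini-Hochberg adjustment over 9285 genes in each comparison and calls at an adjusted p below 0.05. The script was tested on simulated data.

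Named genes were the 6 members, the 3 genes with the highest Pearson r to each, up to 4 changed genes of each family list, the nearest annotated neighbours, HEXIM1 and MYC. RHCG, the marker genes, and the other genes with as low a 24 h difference (H2BC14, IL7R, IL6, MAG, E2F8, TMEM238L) were named after their values were seen. The members and lists were chosen with earlier results of these data known. Alternatives were other filters, scalings, priors, added intensity, blocks and leaving out arrays. Replicate numbers only name an array. The array position codes in the titles form 5 runs. Arrays of 1 run and time deviated from their group means together in 23 of 26 pairs (r above 0.1, lowest 0.0148). What a run stands for is not labelled, and the main fit leaves the runs out. Its p-values therefore do not account for this shared deviation. The number of arrays limits the precision.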

Additional observations from a re-analysis of the deposited data

Results flagged for a closer look

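Of 48 groups of arrays examined over the members and their probe sets, 3 held 1 array that lay far from the rest of its group by Dixon's test at the 95% level, and chance alone flags about 1 in 20 groups. For MOG, replicate 2 of 468 nM at 24 h was the lowest at 2.53, with the other 4 arrays between 4.30 and 4.47 (gap over range 0.913). The 6 identical MOG probe sets had the same array lowest, at 2.44, with the others between 4.08 and 4.39 (0.837), which is the same RNA read by another probe set and no independent case. For MAMDC2, replicate 2 of 75 nM at 24 h was the lowest at 3.0, with the others between 4.04 and 4.24 (0.840). Without these arrays the MOG difference at 468 nM and 24 h was −2.89 in place of −3.26, and the MAMDC2 difference at 75 nM and 24 h was −1.29 in place of −1.52.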

How the results depend on the processing

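The 24 h differences of all 6 genes kept their direction under every alternative run, and leaving out any 1 array kept CLEC2B at 468 nM between −4.08 and −3.76, GIPC3 between −3.66 and −3.28 and RHAG between −3.15 and −2.42. The size depends on the scale for dim genes: with 16 added to each intensity before the log, 468 nM minus DMSO at 24 h was −1.97 for CLEC2B, −2.64 for GIPC3, −2.37 for MOG, −1.46 for MAMDC2 and −1.27 for RHAG. With the same addition 75 nM minus DMSO was −0.91 for MAMDC2 and −0.99 for RHAG, and 468 nM minus 75 nM was −1.39 for CLEC2B, −1.77 for GIPC3, −1.43 for MOG and −0.54 for MAMDC2. FAM216B stayed within its replicate spread.

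The 4 h call of MAMDC2 at 75 nM was lost with no filter (−1.08, limma adjusted p = 0.175), a filter at log2 4 (0.0676), a shift by reference genes (−1.09, adjusted p = 0.0505), only the groups compared (0.129), a trend and robust prior (0.0628), the probe set fit (0.0801) and without the first run (−1.13, adjusted p = 0.0852). The count of members called lower at 75 nM and 4 h was then 0 in place of 1, as it was with a filter on the mean, which leaves MAMDC2, CLEC2B and RHAG untested. That filter also gave 0 in place of 1 at 468 nM and 4 h. Leaving out 1 array gave a difference of −1.29 to −0.86 for MAMDC2 at 75 nM and a count of 0 to 1. The MAMDC2 call at 75 nM was kept with repeated quantile normalization (limma adjusted p = 0.0467), the mean of all probe sets (0.0470) and array weights (0.0357). It was also kept with 16 added to each intensity (0.00459), a replicate block by run (0.0135) and a block by run and time (0.0149). With a replicate block by run, MOG at 468 nM and 4 h was −0.74 (limma adjusted p = 0.0377), and with a block by run and time, added after seeing the data, −0.75 (0.0168), so 2 members were called lower under either block in place of 1. The labels do not say what a run is. Deviations of arrays of 1 run and time had a median r of 0.205, against −0.0458 for different runs at the same time. Each array was also compared with the arrays of the same time in the other groups only. Among those, 25 of 28 arrays correlated best with an array of their own run, a hint from the data that runs share more than a code. Under the block by run and time the DMSO difference of 24 h minus 4 h was −0.55 for RHAG in place of 0.46, 0.23 for FAM216B in place of 0.67 and 0.20 for GIPC3 in place of 0.40. With a shift by 9 reference genes the median of all genes at 468 nM and 4 h was −0.153, against −0.03 without it. Of these 9, limma called 3 higher and 4 lower at 468 nM and 24 h, beside 20.4% and 25.1% of all tested genes. It called 0 of the 9 at either dose against DMSO at 4 h. The shift at 24 h thus rests in part on genes that moved. The causes of the changes under these alternatives were not tested. Signal over background limits RHAG and MAMDC2, which were above 5 on 6 and 11 arrays.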
